A study of Mus musculus with 3 samples.

Results

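Macf1 and 8 other genes for very long linker proteins of the cytoskeleton, Dst, Plec, Sptan1, Sptbn1, Ahnak, Utrn, Syne1 and Syne2, were examined for ChIRP-seq regions of the lncRNA PAM in activated satellite cells (ASCs). They are 9 of the 22350 protein-coding genes that the GENCODE M1 annotation of mm9 places on the autosomes and the X chromosome, and were taken by name as large cytolinkers. The choice was made with earlier results of these data known. Every region that overlaps the span of one of them by at least 1 bp was counted. The odd probe pool had 5 such regions among 2112, in Macf1, Sptbn1 and Ahnak. The even probe pool had 2 among 345, in Macf1 and Ahnak. No region of either pool fell in Dst, Plec, Sptan1, Utrn, Syne1 or Syne2. All 7 regions lay on a last exon, and 6 of these had their midpoint in a 3′ untranslated region (3′UTR). Each even region overlapped an odd one, so the 7 regions are not separate places. Over all protein-coding genes, 72.7% of exonic odd regions and 71.4% of exonic even regions lay on a last exon. Of all regions within these genes, 50.6% of odd and 42.3% of even regions had their midpoint in a 3′UTR.

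PAM, the Pax7 associated muscle lncRNA, is transcribed from a super-enhancer of ASCs, and ChIRP-seq pulls down an RNA with biotinylated antisense probes and sequences the DNA that comes with it. Satellite cells were sorted from hindlimb muscle of Tg:Pax7-nGFP mice, in which nuclear GFP marks cells that use the Pax7 gene, and grown in culture as ASCs without further treatment. Probes were split into an odd and an even pool. For each pool, ASCs fixed for 10 min in 1% glutaraldehyde gave 1 library after 4 h with 100 pmol of probes at 37 °C. The age and number of the mice and the probes in each pool are not given in the sources used here, and the input library was not analysed here. With 1 library per pool there is no replicate error, no condition is compared, and all intervals below cover counting error only. The number of reads is unknown. Each region carries a whole-number score of at least 4, whose unit the sources do not give, and scores were read only within one pool. Odd regions were 254 bp wide with a median score of 6, and even regions were 248 bp wide with a median score of 5.

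Cytolinkers join the actin, microtubule and intermediate filament networks to each other and to membranes and the nucleus. Plakins (Macf1, Dst, Plec) cross-link filaments, spectrins (Sptan1, Sptbn1) form the lattice under the plasma membrane, utrophin (Utrn) ties actin to the dystroglycan complex, AHNAK is a giant scaffold at the plasma membrane, and nesprins (Syne1, Syne2) link the nuclear envelope to the cytoskeleton. In muscle these proteins hold the contractile apparatus, the sarcolemma and the nuclei in place, and their mRNAs are among the longest in the genome.

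The Macf1 sequence under the odd region with the higher score is shown first, because it is the only region in these genes with its midpoint in coding sequence and the only one that crosses a splice site. It is chr4:123028192-123028445 (mm9), printed 5′ to 3′ on the minus strand, the strand of Macf1. Lower case marks 57 bases of the last intron and capitals mark the first 197 bases of the last exon.
Macf1 odd region: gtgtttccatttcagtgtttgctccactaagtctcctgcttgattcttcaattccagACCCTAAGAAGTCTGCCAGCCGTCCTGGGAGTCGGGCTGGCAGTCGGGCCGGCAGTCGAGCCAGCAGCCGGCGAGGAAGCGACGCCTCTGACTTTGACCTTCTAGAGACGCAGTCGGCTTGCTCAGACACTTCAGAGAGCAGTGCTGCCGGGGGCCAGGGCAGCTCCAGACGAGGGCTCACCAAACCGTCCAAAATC
The exonic part opens with a short repeat. The letters GGNAGTCG, read off this region's own sequence, occur 3 times in it, so that count was fixed by the choice of letters. Read on both strands, 20 of the 2112 odd regions (0.947%) held these letters at least once. The Macf1 region itself was the 1 of 2112 that held them 3 times. The C-terminal tail of Macf1, which this exon encodes, is known for repeats rich in glycine, serine and arginine that bind microtubules. The median 31-mer of the region occurs once in mm9, as do those of the other 6 regions. Single-copy regions were also usual in the lists, with 83.3% of all odd and 80.3% of all even regions. In 3′UTRs they were 95.0% of odd and 94.4% of even regions.

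A long run of T stood in the odd and the even region of Ahnak and in the even region of Macf1, and is shown, chosen after the sequences were seen, because both loci shared by the pools touch one. The windows are Ahnak chr19:9093103-9093132 on the plus strand and Macf1 chr4:123027304-123027333 on the minus strand, in mm9 and in the direction of the transcript, with the longest run in capitals.
Ahnak even region, window: ctttctttcTTTTTTTTTTTgcattgaacg
Macf1 even region, window: tgatctgcTTTTTTTTTTTTTctatttatt
The run was 11 bases in Ahnak and 13 bases in Macf1. The cut-off used next, 11 bases, equals the shorter of these runs, so the regions shown pass it by choice. A run of A or T of at least 11 bases was present in 3 of the 7 regions in these genes, with the same Ahnak run counted in both pools. Such a run was present in 4.12% of all odd regions and in 3.48% of all even regions. Among regions in a 3′UTR of any protein-coding gene, the shares were 6.37% of 926 odd regions and 7.48% of 107 even regions.

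None of the 7 regions held a long match to the 6 biotinylated probes, each 20 bases long. The longest exact run shared with a probe on either strand was 7 or 8 bases in every region, against a median of 7 over all odd regions, a median of 8 over all even regions and a maximum of 13 in each list. The 3 regions with 8 matching bases are shown with their probe, the run in capitals, each site on the strand that reads like the probe.
Probe 1: gccAGAAAGAAtggatgact
Ahnak even region, site: aaaAGAAAGAAagaaaaagg
Probe 2: gcatTTTCAGTGggatcaca
Macf1 coding odd region, site: tccaTTTCAGTGtttgctcc
Probe 3: acctgccaTCTGCTATcaaa
Sptbn1 odd region, site: aatagtacTCTGCTATaggt
The sites are chr19:9093096-9093115, chr4:123028421-123028440 and chr11:30008698-30008717, each on the minus strand of mm9. Aligned without gaps, probe and site had 11, 11 and 10 identical bases of 20. The Ahnak site is complementary to the Ahnak transcript in this orientation, whereas the Macf1 and Sptbn1 sites have the letters of the transcript itself. At least 8 matching bases were found in 44.4% of all odd regions and 57.4% of all even regions, so runs of this length were common in both lists.

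Macf1 encodes the microtubule-actin crosslinking factor, a plakin that guides microtubules along actin. Its gene spans chr4:123026876-123361603 on the minus strand, 34.3 Mb beyond PAM on the same chromosome. Its longest coding transcript has 101 exons and 23407 spliced bases, the fifth longest of the 22350 genes. The odd pool had 2 regions in Macf1, with scores of 8 and 9. The region with a score of 8, chr4:123027064-123027317, lay whole in the 3′UTR, with its midpoint 229 bp before the 3′ end. The region with a score of 9, printed above, was centred 1357 bp before the 3′ end and 183 bp before the stop codon. Of all odd regions, 29.8% had a score of at least 8 and 23.5% a score of at least 9, so both stood in the upper part of the list and neither near its top. The even pool had 1 region in Macf1, chr4:123027187-123027434, with its midpoint 349 bp before the 3′ end and a score of 4, the lowest in the list. It overlapped the odd region of the 3′UTR over 131 bp. The other 100 exons of the transcript, which encode nearly the whole protein, had no region in either pool.

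Dst, which encodes dystonin, is the closest relative of Macf1 among these genes and nearly the same in layout. It spans chr1:33965125-34365495 on the plus strand and has 99 exons and 23285 spliced bases, with a 3′UTR of 1061 bp against 1174 bp in Macf1. No region of either pool lay in Dst. The nearest odd region was 4171 kb away and the nearest even region 11013 kb away. Plec encodes plectin, which binds intermediate filaments to actin and to cell junctions. It spans chr15:76001404-76063004 on the minus strand and has 33 exons and 15455 spliced bases, 7412 of them in the last exon. It had no region, and the nearest odd region lay 16.7 kb outside the gene. Within the plakins, Macf1 had 2 odd regions and 1 even region that overlapped 1 of them. Its paralog Dst, of similar size, had none in either pool.

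Sptbn1, named Spnb2 in the annotation, encodes the beta chain of non-erythroid spectrin and spans chr11:29999395-30168175 on the minus strand. It had 2 odd regions and no even region. Both lay in a 3′UTR, but of different transcripts. The region chr11:29999996-30000249 had a score of 8 and was centred 727 bp before the end of a transcript of 36 exons and 8461 bp. The region chr11:30008673-30008926 had a score of 6, the median of the list, and was centred 2014 bp before the end of the longest transcript, which has 31 exons and 9107 bp. The latter transcript ends upstream of the last exon of the former, so each of these 3′ ends of Sptbn1 carried 1 odd region. The region with a score of 6 had a GC content of 27.2%, and 0.284% of all odd regions were lower. Sptan1, named Spna2 in the annotation, encodes the alpha chain that pairs with the beta chain, and spans chr2:29821080-29886971 on the plus strand. It is the shortest of the 9 genes in spliced length, with 57 exons, 8021 spliced bases and a 3′UTR of 358 bp. No region lay in Sptan1, and the nearest was an odd region 39.8 kb away.

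Ahnak had the highest score in these genes. It spans chr19:9063750-9151409 on the plus strand, and 17497 of the 18099 bases of its longest coding transcript lie in the last of 5 exons, so a place on the last exon says little for this gene. The odd region, chr19:9093110-9093363, had a score of 23, which 3.55% of the odd regions reached or passed. It was centred 449 bp before the 3′ end and 425 bp after the stop codon. The even region, chr19:9093085-9093332, had a score of 6, reached or passed by 35.1% of the even regions, and was centred 477 bp before the 3′ end. The regions overlapped over 223 bp. The long stretch of coding repeats that makes up most of AHNAK had no region in either pool.

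Utrn, Syne1 and Syne2 had no region in either pool. Utrn, the autosomal relative of dystrophin, spans chr10:12101986-12589163 on the minus strand, with 74 exons, 12382 spliced bases and a 3′UTR of 2003 bp. The nearest even region was 114 kb away and the nearest odd region 291 kb away. Syne1, which encodes nesprin-1, spans chr10:4795849-5326338 on the plus strand and has the most exons of the 9 genes, 144, and the greatest spliced length, 28204 bases. Its 3′UTR of 1807 bp was longer than those of Macf1 and Ahnak. The nearest odd region was 2313 kb away. Syne2, which encodes nesprin-2, spans chr12:76919121-77211913 on the plus strand and has 115 exons and 21704 spliced bases. The nearest region of each pool was 187 kb away.

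**Figure D1:**
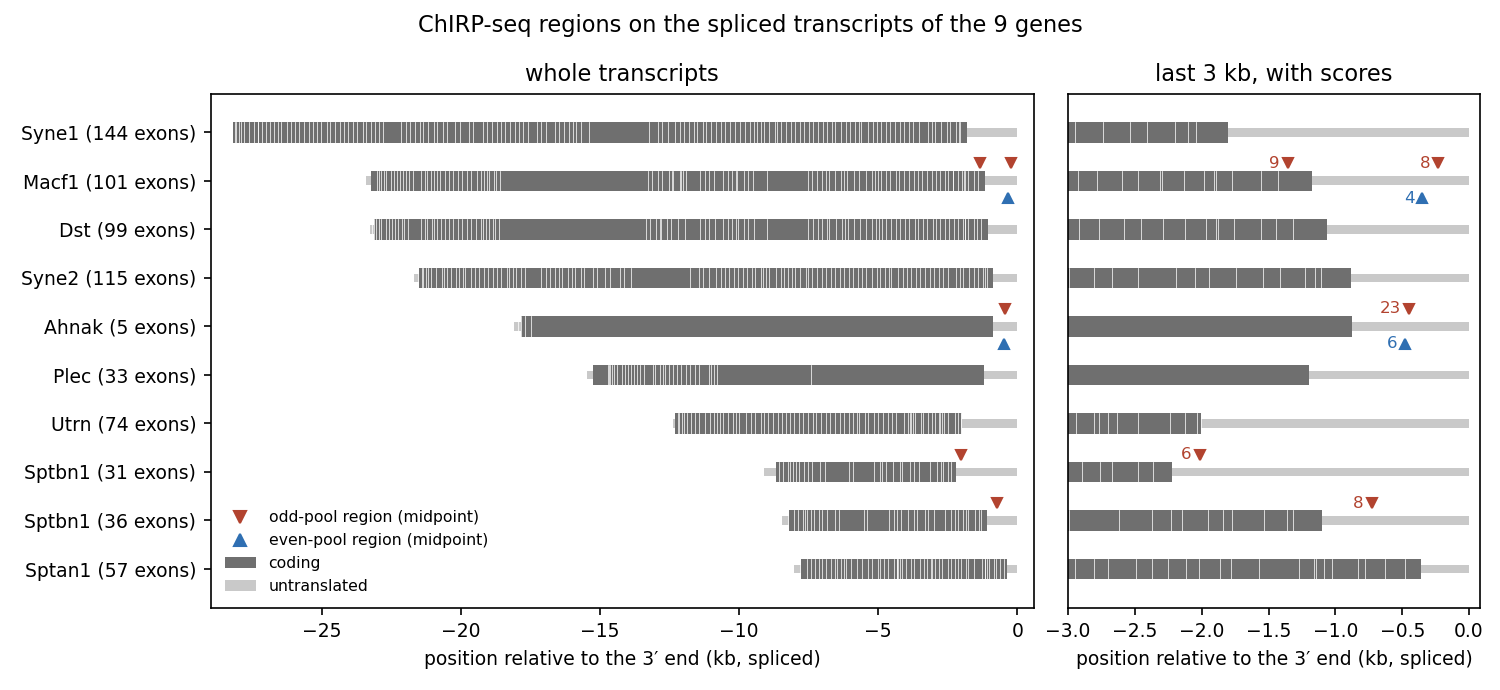
Spliced transcripts of the 9 genes drawn to scale and aligned at their 3′ end (x axis, kb), with the last 3 kb enlarged on the right. Bars show coding and untranslated sequence, white lines exon borders, red triangles the midpoints of odd regions and blue triangles those of even regions, with their scores. Sptbn1 is drawn with the longest coding transcript that holds each of its regions. The regions of Macf1, Ahnak and Sptbn1 sit between 229 and 2014 bp from the end of the transcript drawn, and the 6 other genes have none.

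The map of the spliced transcripts shows that regions in these genes gathered at one end of very long mRNAs. Over the 5 odd regions the midpoint lay at a median of 94.2% of the transcript length (from 77.9% to 99.0%), and the even regions lay at 97.4% and 98.5%. Over all odd regions on coding transcripts the median was 64.6%, with quartiles of 41.7% and 81.1%. Measured in bases rather than as a share, the members were close to other genes. Their odd regions were centred 229 to 2014 bp before the 3′ end, with a median of 727 bp, and all odd regions had a median of 929 bp with quartiles of 504 and 1663.5 bp. For the even pool, the distances were 349 and 477 bp, against a median of 780 bp over all even regions. A last exon was also the usual place in the whole lists, with 72.7% of 1617 exonic odd regions (95% Wilson interval 70.5 to 74.8) and 71.4% of 185 exonic even regions (64.5 to 77.4). No region of the 9 genes lay within 500 bp of an annotated gene start. The share of all regions that close to a gene start is not given here, so this absence has no background to be set beside. Over all protein-coding genes, 1.88% of odd and 1.98% of even regions had their midpoint in 5′ untranslated sequence. With so few regions in the 9 genes, the absence therefore says little about their gene starts.

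**Figure D2:**
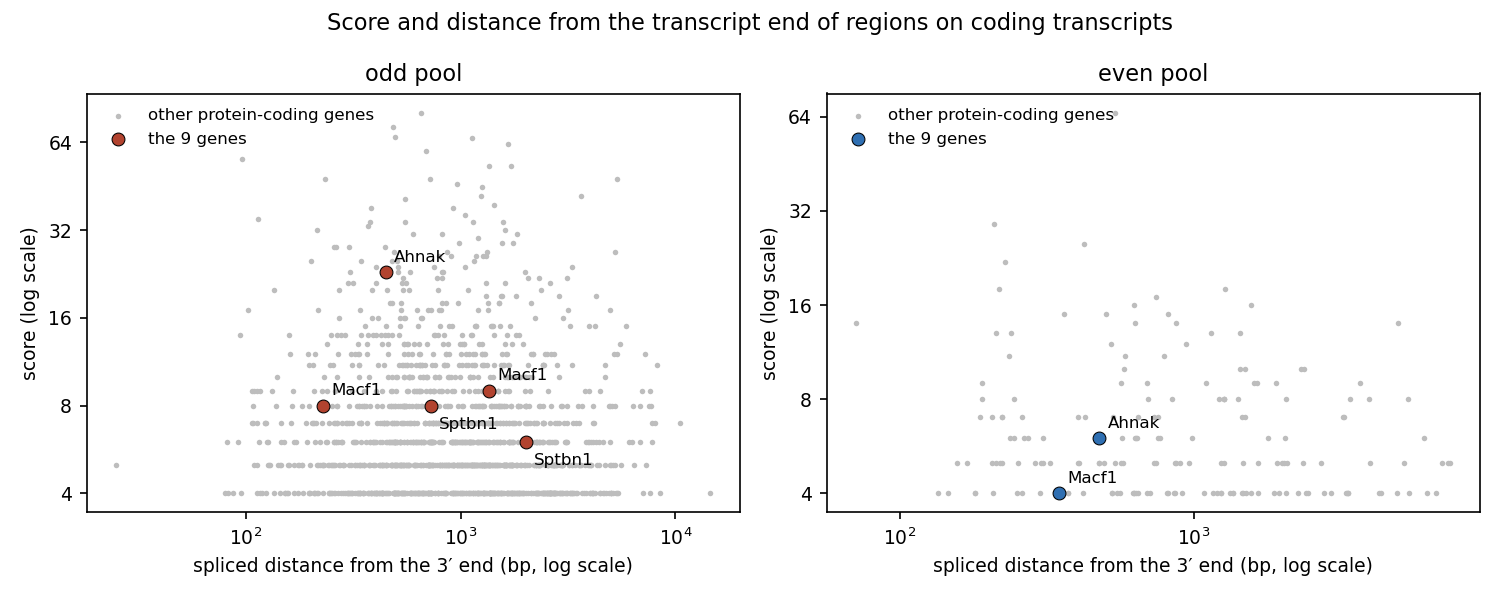
Score (y axis, log scale) against spliced distance of the region's midpoint from the 3′ end (x axis, bp, log scale) for odd regions on the left and even regions on the right. Grey points are regions on other protein-coding transcripts and coloured points those of Macf1, Sptbn1 and Ahnak. The Ahnak odd region, with a score of 23 at 449 bp, is the one member point high in the list.

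Coding sequence took a larger share of the exon length in these genes than over all genes, and 3′UTRs a smaller one. Coding exons made up 81.2% of their exon length and 3′UTRs 7.92%, against 45.9% and 33.7% over all protein-coding genes. The 3′UTRs of the 9 genes held 4 odd regions in 15.3 kb, or 26.1 per 100 kb (exact 95% Poisson interval 7.11 to 66.8), against 3.58 per 100 kb over all genes. Their coding exons held 1 odd region in 157 kb, or 0.637 per 100 kb (0.0161 to 3.55), against 1.70 per 100 kb over all genes. Their introns, 2236 kb in all, held no odd region (0 to 0.165 per 100 kb), against 0.0288 per 100 kb over all genes, a rate inside that interval. The even pool had 2 regions in the 3′UTRs of these genes, or 13.1 per 100 kb (1.58 to 47.2), against 0.408 per 100 kb over all genes. It had none in their coding exons or introns, where all genes had 0.196 and 0.00757 per 100 kb. The genes were not drawn at random and the 6 regions in 3′UTRs come from 3 genes, so these rates describe the 9 genes and no test was made.

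**Figure D3:**
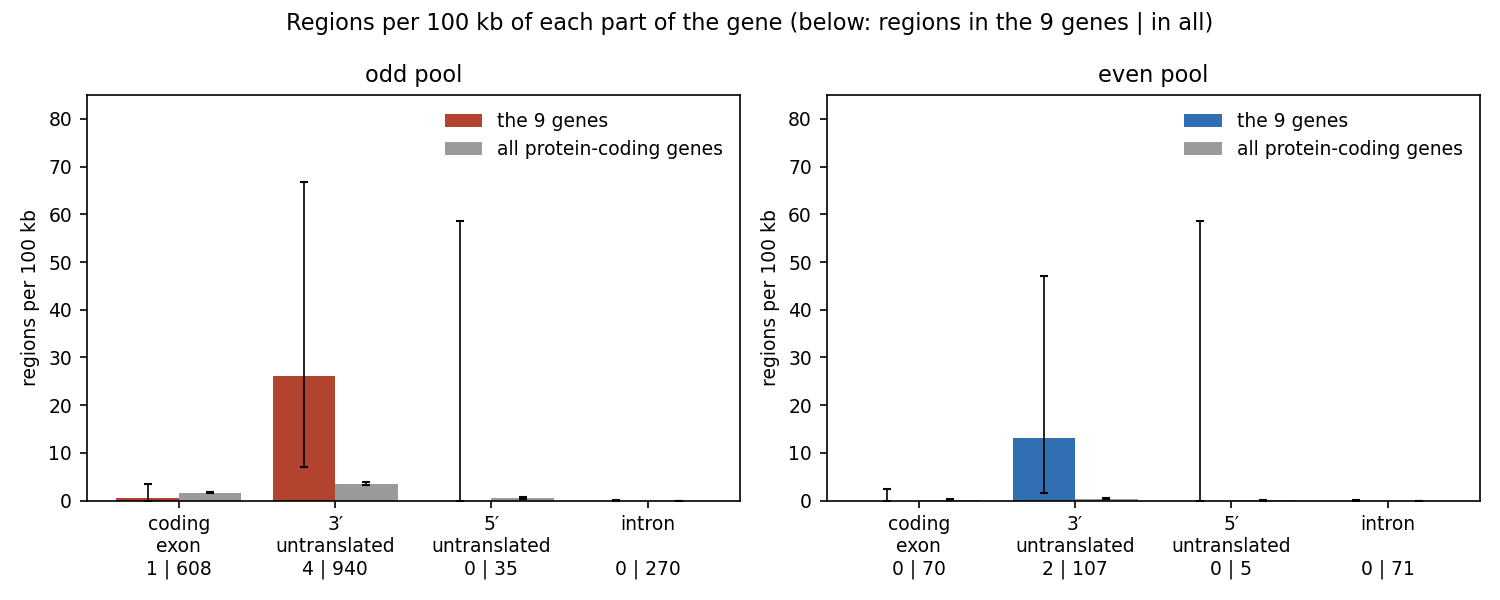
Regions per 100 kb (y axis) of coding exon, 3′UTR, 5′UTR and intron in the 9 genes (coloured bars) and in all protein-coding genes (grey bars), by pool. Error bars are exact 95% Poisson intervals, and the number of regions stands under each pair of bars for the 9 genes and for all genes. In the odd pool the 3′UTR bar of the 9 genes is 26.1 and that of all genes 3.58, and the interval of the 9 genes runs from 7.11 to 66.8.

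Gene length and exon number were then set beside the counts. An odd region was found in 3 of 9 members (33.3%, 95% Wilson interval 12.1 to 64.6), against 6.47% of all protein-coding genes. An even region was found in 2 of 9 members (22.2%, 6.32 to 54.7), against 0.998% of all genes. A locus shared by both pools was found in the same 2 of 9, Macf1 and Ahnak, against 0.470% of all genes. These 2 loci are part of 147 in the whole genome. Among the 685 genes with a spliced length of at least that of Sptan1, 8.76% had an odd region and 1.75% an even region. Among genes with at least the 5 exons of Ahnak, the shares were 8.32% and 1.25%. Among genes that span at least 100 kb, they were 9.25% and 2.17%, and 2 of the 6 members of that size had an odd region and 1 of 6 an even region. Counted only in the last 1000 spliced bases of any coding transcript, an odd region was found in the same 3 of 9 members. The shares were 3.96% of all genes and 4.09% of those at least as long as Sptan1. The 2 odd regions of Sptbn1 were counted there, although 1 was centred 2014 bp from the end of its longest transcript. The even pool gave 2 of 9 members there, against 0.528% and 0.876%. Every share of the members was above its background, and with 9 genes each interval is wide. Because the members were chosen with earlier results of these data known, these shares describe the 9 genes and cannot show an excess.

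**Figure D4:**
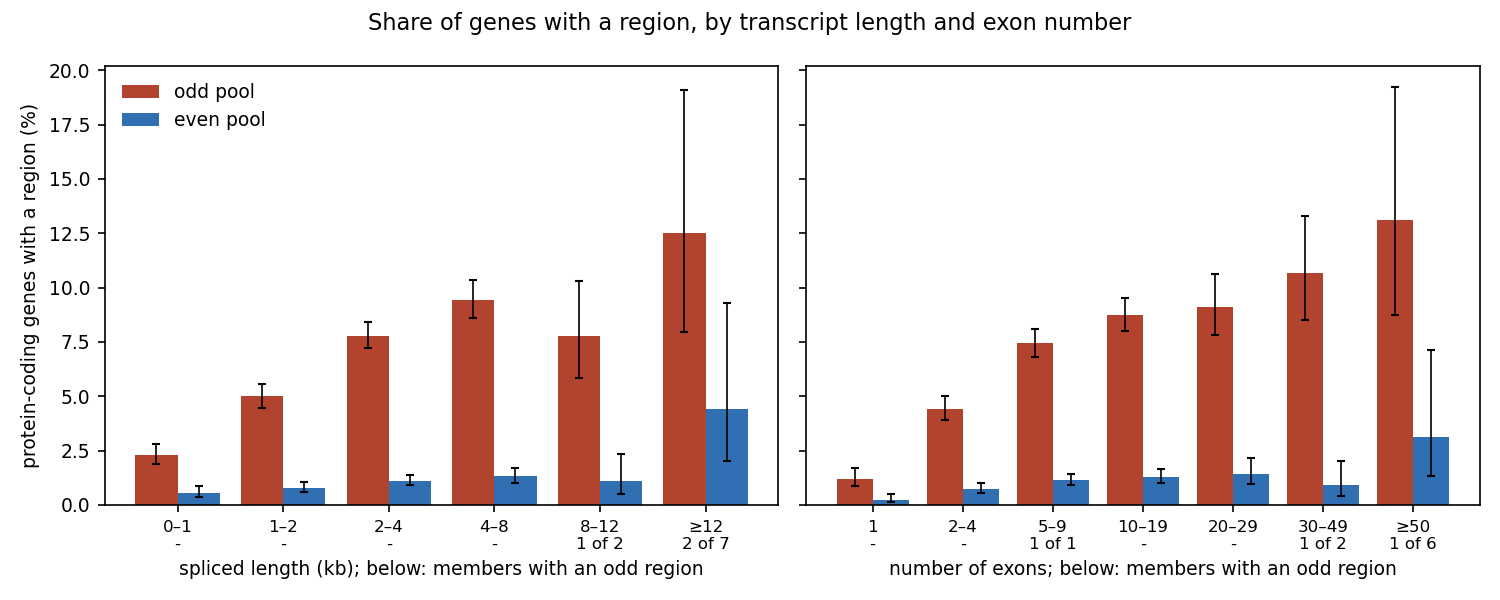
Percent of protein-coding genes with at least 1 odd region (red) or even region (blue), by spliced length (left, kb) and number of exons (right). Error bars are 95% Wilson intervals, and the count of members with an odd region stands under each class. The share of genes with an odd region is 2.30% below 1 kb and 12.5% from 12 kb upward.

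The plot of gene shares by length shows the lowest share in the shortest genes and the highest in the longest, with a dip from 8 to 12 kb. An odd region was found in 2.30% of genes below 1 kb of spliced length, in 7.79% of those from 2 to 4 kb, in 9.43% of those from 4 to 8 kb, in 7.78% (43 of 553) of those from 8 to 12 kb, the class of Sptan1 and Sptbn1, and in 12.5% (17 of 136) of those of 12 kb or more, where 2 of 7 members had one. By exon number, the share ran from 1.22% of genes with 1 exon to 13.1% of genes with 50 exons or more, where Macf1 was 1 member of 6 with an odd region. Among the 9 genes themselves, length did not order the counts. The 3 members with an odd region had a median spliced length of 18099 bp and the 6 without one a median of 18579.5 bp. The median number of exons was 31 in the former and 86.5 in the latter, and the median gene span was 168781 and 346582 bp. Of the 4 members that rank among the 10 longest protein-coding genes by spliced length, Macf1 had a region and Syne1, Dst and Syne2 had none. Per kb of spliced length the members held 0.0313 odd regions, all protein-coding genes 0.0294 and the 685 long genes 0.0151. The even pool had 0.0125, 0.00399 and 0.00288. These rates count regions anywhere in the gene span. Introns held 14.5% of odd and 28.1% of even regions over all genes and none in the members, so the counts are not alike in kind.

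The proteins that these linkers bind were examined through 8 lists of related genes, 58 in all, of which 56 were matched in the annotation. An odd region was found in 10 of the 56 (17.9%) and an even region in 4 of 56 (7.14%), beside the 6.47% and 0.998% of all genes given above. These lists too were chosen with earlier results of these data known, so their shares cannot show an excess. Partners of AHNAK had 2 of 4 genes with an odd region. S100a10, the S100 protein that joins AHNAK to annexin A2, had odd regions with scores of 28 and 8, the higher on its last exon, and Anxa2, the annexin itself, had 1 with a score of 4. Dysf and Ahnak2 had none. Genes of the LINC complex and the nuclear lamina, to which nesprins are anchored, had 3 of 7 with an odd region. Lmna, which encodes lamins A and C, had an odd region with a score of 12 and an even region with a score of 4 in its 3′UTR, and an odd region with a score of 6 in its first exon. Sun1, the inner membrane protein that holds nesprins, had an odd region with a score of 4, and Tmpo, a lamina-associated protein, had one with a score of 7, both in the 3′UTR. The nesprins themselves had none.

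In the list of dystrophin and its complex, 1 of 13 genes (7.69%) had an odd region, near the 6.47% of all genes. This was Dag1, which encodes dystroglycan, the membrane receptor that utrophin binds, with scores of 9 and 4. Sntb1, a syntrophin, had 1 even region off its exons, with a score of 4. Of 8 other spectrins and actinins, Actn1, which encodes the actin cross-linker alpha-actinin-1, had 2 odd regions with scores of 7 and 4. Of 10 genes of the membrane skeleton that bind spectrin, 3 had an odd region. Epb4.1l2 and Epb4.1l3, both for proteins of the band 4.1 family, had 1 odd region each in the 3′UTR, with a score of 7. Ank2, which encodes ankyrin-B, had an overlapping odd and even region off its exons, with scores of 6 and 5. Among 7 partners of Macf1 at microtubule plus ends, Clip1 had 1 even region off its exons, with a score of 4, and none had an odd region. The 3 other plakins matched (Dsp, Evpl, Ppl) had no region, nor had Ttn, Neb and Ryr1, which encode giant proteins of the sarcomere and its calcium release. Of the 14 odd regions in these lists, 9 were on the last exon of at least 1 annotated transcript, including the Lmna region in the first exon of its longest transcript.

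Cell type markers and the leading genes place these values in the lists, although a region does not measure expression. Among 7 markers of satellite cells and myoblasts, 3 had odd regions (42.9%), beside 6.47% of all genes. Des had scores of 19 and 45, Itga7 scores from 6 to 10, and Vcam1 scores of 4. Pax7, Myf5, Myod1 and Cdh15 had no region. Among 5 markers of other cells of muscle, 1 had odd regions (20%). This was Acta1, the skeletal actin of differentiated fibres, with scores of 35 and 36, and Pdgfra, Pecam1, Ptprc and Myh4 had no region. Des, Itga7 and Acta1 also had even regions. Their part in the result was not tested. The genes with the most odd regions were Fn1 with 26, Gm20388 with 11, Col3a1 with 8, and Acta2 and Itgb1 with 6 each. With 2 odd regions, Macf1 and Sptbn1 were among 283 of 1445 genes with an odd region (19.6%) that had at least 2.

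Base composition varied among the regions of these genes. Odd regions of the members had GC contents from 27.2% to 59.1% with a median of 44.1%, against a median of 49.6% over all odd regions and 44.9% over odd regions in 3′UTRs. The coding region of Macf1 was the highest of the 5. The letters AATAAA, those of the usual polyadenylation signal, occurred on either strand in 3 of the 5 odd regions and 1 of the 2 even regions, against 17.6% and 15.9% of all regions and 26.0% and 22.4% of regions in 3′UTRs. On the strand of the transcript they occurred in 1 of the 5 odd regions, that of the Macf1 3′UTR, and in 0 of the 2 even regions. The list shares given here are for either strand and cannot be set beside these last counts. No other annotated gene overlapped any of the 7 regions.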

How the data were processed

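ChIRP-seq regions of PAM in ASCs were taken from 2 lists, 1 per probe pool. Per the labels and the study's methods, the authors used Bowtie2 for alignment (genome build mm9) and MACS2 for peaks. They deposited for each region chromosome, start, end and a score, whose unit is not stated. Regions were used as deposited, with starts read as 0-based. Genes came from GENCODE M1, with Sptan1 and Sptbn1 matched through RefSeq synonyms. Eppk1 and Syne3 were not matched. A region was placed on a transcript by its midpoint, and on the longest coding transcript of the gene where that held it. The 9 members, the related lists and the markers were chosen with earlier results of these data known. Genes named were the members, related genes and markers, and the 5 genes with the most odd regions. The rule also took the 10 longest genes, whose full list is not reported here. Intervals are 95% Wilson intervals for shares and exact Poisson intervals for rates. No p-value was computed, since each pool had 1 library. The counting of overlaps was checked on simulated regions planted in genes, and all 200 planted genes were recovered. Genome copies were counted with 31-mers. Alternatives were score minimums of 5 and 10, overlap by exon or midpoint, spans extended by 1000 bp, a reciprocal overlap of 50%, other transcripts, strata of genes, and, chosen after seeing the data, Macf1 left out and the last 1000 bases alone. The depth is unknown, which limits the precision to counts of regions. Tables were made with pandas 2.3.3 and NumPy 2.4.6 under Python 3.11.15, k-mers counted with numba 0.67.0, intervals computed with SciPy 1.17.1 and figures drawn with matplotlib 3.10.9.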

Additional observations from a re-analysis of the deposited data

How the results depend on the processing

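Counts were held to within 1.5 times of the reported value, and shares and rates to its 95% interval. Of 41 alternatives, 30 stayed within these limits and 11 did not. A minimum score of 5 left 1 even region, 1 member with an even region (Ahnak) and 1 shared locus, since the Macf1 even region has the lowest score. A minimum score of 10 left 1 odd region, 1 member with an odd region (Ahnak), 0 even regions, 0 members with an even region and 0 shared loci. The share of protein-coding genes with an odd region moved from 6.47% to 8.76% among genes of at least the spliced length of Sptan1, 8.32% among genes with at least 5 exons and 9.25% among genes that span at least 100 kb. No paired analysis was possible because no result came from a test and there was 1 library per pool. Regions absent from a list may lie under its minimum score, and at unknown depth a member without a region cannot be told apart from one under that minimum.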
